A study of Mus musculus with 2 samples.

Results

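The 36 genes described here encode subunits of the Polycomb repressive complexes PRC1 and PRC2, proteins of the trithorax group, and the demethylases that act against PRC2. They were taken from a list of gene symbols, not from measured values, and are 36 of the 43346 genes quantified. All 36 were found in both libraries. Total RNA came from the hindbrain of healthy B6NCrl mouse embryos at embryonic day 15.5, with no treatment and no other genotype. Replicate 1 pooled the hindbrains of 78 embryos and replicate 2 those of 62, both sexes in each pool. RNA over 200 nt long was used, 10 ng for each library, and spike-in RNA was added. The design has 1 group of 2 libraries, so the comparisons are between genes, between transcripts of a gene, and between the 2 pools.

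PRC2 methylates histone H3 on lysine 27, a mark of silenced chromatin, and PRC1 places ubiquitin on histone H2A and compacts chromatin. Trithorax-group proteins, among them the KMT2 methyltransferases that act on histone H3 lysine 4, counter this silencing. In the embryonic brain both systems are known for holding Hox genes in their spatial pattern and for timing the passage of neural progenitors into neurons and glia.

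The libraries held 40020322 estimated counts in genes in replicate 1 and 43263959 in replicate 2, of which members had between 131 and 10386 each. Of 10 hindbrain markers, 9 reached 1 TPM (the authors' level corrected for transcript length and library size) in both libraries, with Hoxb5 highest at 92.0 and 113 TPM in replicates 1 and 2, while En2 reached 1 TPM in replicate 1 alone, at 1.07 and 0.48 TPM. The tissue also held neurons (Tubb3, 1406 and 1445 TPM), radial glia (Fabp7, 1746 and 1815 TPM), dividing progenitors (Pcna, 97.2 and 90.9 TPM) and glial cells (Sparcl1, 245 and 260.1 TPM). Markers of other tissue were present too, led by Hba-a2 of blood (7054 and 5584 TPM), Vtn of vessels (133 and 127 TPM), Ptgds of meninges (792 and 526 TPM), Ttr of choroid plexus (868 and 1183 TPM) and C1qb of microglia (45.1 and 34.5 TPM). In bulk RNA, fewer cells of a type and less RNA per cell cannot be told apart.

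All 36 members were detected at 1 TPM or more in both libraries, against 63.1% of the 21461 nuclear protein-coding genes. Their median level was 19.4 TPM (18.985 in replicate 1 and 20.34 in replicate 2), against 19.405 TPM over the 13542 detected coding genes. The members spread over that range, with 18 of 36 above the median of detected coding genes. The highest was Rbbp4, a histone-binding subunit of PRC2 and of other complexes, at 209.7 TPM in replicate 1 and at 196 TPM in replicate 2, and the lowest was Phf19, a PRC2 accessory protein that binds methylated histone H3, at 1.45 and 1.54 TPM. The SD between the libraries was under 10% of the mean for 29 of 36 members, with a median of 4.64%. The same share over all genes is not given here. In the order of mean TPM, 17 of 35 neighbouring pairs had library values that did not overlap, and 18 did overlap.

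**Figure D1:**
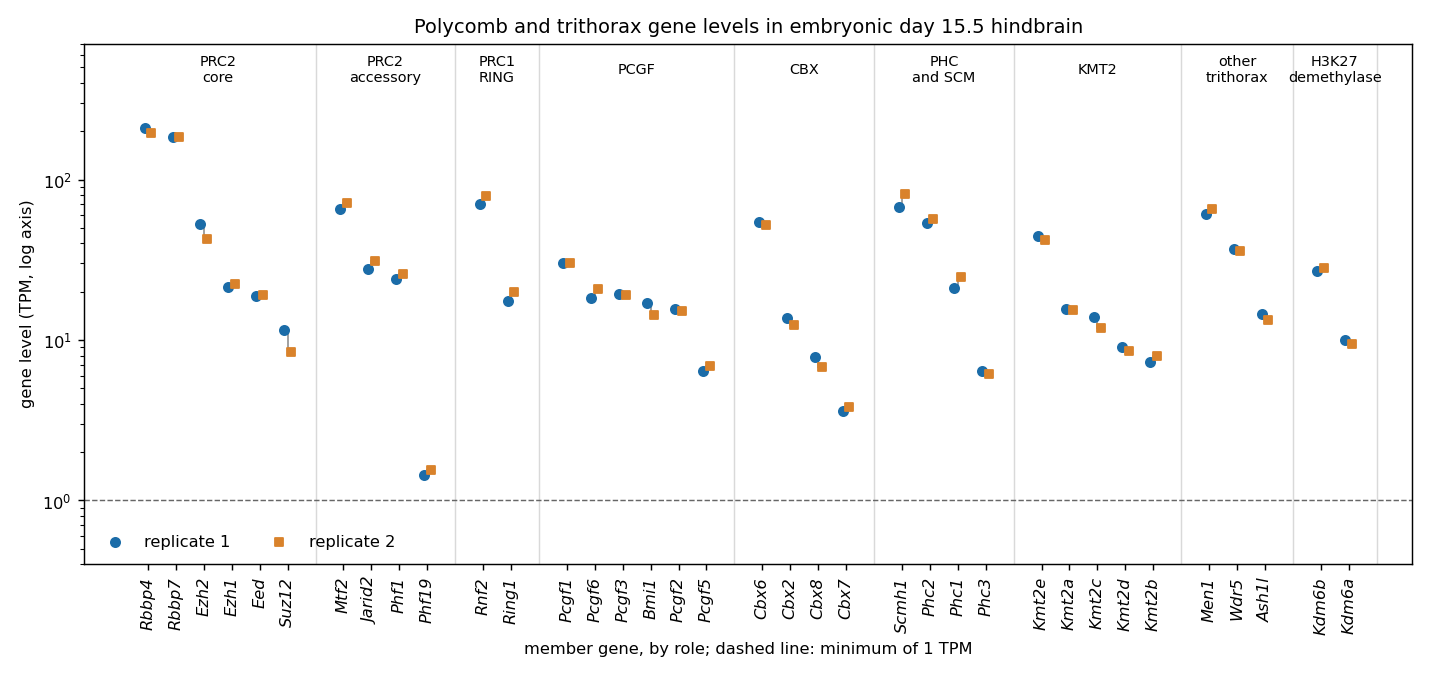
Gene level in TPM (log axis) of the 36 members, grouped by role and sorted within each role, with replicate 1 as circles and replicate 2 as squares. All points lie above the 1 TPM line, from Phf19 at 1.45 and 1.54 TPM to Rbbp4 at 209.7 and 196 TPM.

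The core of PRC2 had a median of 34.6 ± 3.29 TPM (SD of the 2 library medians, n = 2) over 6 genes. Ezh2, the main methyltransferase of dividing cells, had 52.6 TPM in replicate 1 against 42.4 TPM in replicate 2. Its relative Ezh1, which is better known from resting cells, had 21.3 and 22.2 TPM. Ezh2 was therefore higher than Ezh1 in each pool, by a log2 ratio of 1.12 ± 0.26 on the TPM scale (SD, n = 2). Eed, which binds the methyl mark and activates the enzyme, had 18.7 and 19.0 TPM. Suz12, the scaffold of the complex, was lower at 11.5 and 8.45 TPM. Both were thus present at a lower level per length than Ezh2, and far below the histone-binding pair Rbbp4 (209.7 and 196 TPM) and Rbbp7 (185 and 184 TPM), which also serve other chromatin complexes.

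The accessory subunits, which steer PRC2 to its targets, differed widely in level. Mtf2 (Pcl2) had 65.5 and 71.3 TPM, Phf1 (Pcl1) had 23.9 and 25.6 TPM, and Phf19 (Pcl3) had 1.45 and 1.54 TPM. These 3 genes are the Polycomb-like family, and their library values did not overlap. With complete coding transcripts alone, Mtf2 had 9.20 and 8.58 TPM and stood under Phf1, which has a single transcript. Jarid2, which defines the other form of PRC2, had 27.8 and 30.9 TPM.

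In PRC1, the ubiquitin ligase Rnf2 (Ring1b) had 70.0 and 79.0 TPM and its relative Ring1 (Ring1a) had 17.6 and 20.0 TPM. The log2 ratio of Rnf2 over Ring1 was 1.99 ± 0.0077 (SD, n = 2). Each RING protein pairs with 1 PCGF protein, and the 6 PCGF genes had a median of 17.4 TPM. Pcgf1, of the variant complex that also holds a demethylase of CpG islands, led with 30.0 and 30.0 TPM. Pcgf6, of the variant complex active in germ cell gene silencing, had 18.3 and 20.7 TPM, and Pcgf3 had 19.3 and 19.2 TPM. Of the partners in canonical PRC1, Pcgf2 (Mel18) had 15.5 and 15.2 TPM and Bmi1 (Pcgf4) had 16.9 and 14.4 TPM. They were not separable, since their log2 ratio was -0.12 in replicate 1 and 0.08 in replicate 2. With complete coding transcripts alone it was below 0 in both, at -0.55 and -0.27. Pcgf5 was the lowest of the 6 at 6.45 and 6.89 TPM.

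The CBX proteins read the methyl mark and bring canonical PRC1 to it. Cbx6 had 54.3 and 52.4 TPM, well above Cbx2 (13.7 and 12.4 TPM), Cbx8 (7.87 and 6.80 TPM) and Cbx7 (3.59 and 3.82 TPM). Cbx6 exceeded Cbx7 by 3.85 ± 0.10 on the log2 scale of TPM (SD, n = 2). The polyhomeotic genes, whose products polymerize PRC1, ran from Phc2 (53.4 and 57.1 TPM) through Phc1 (21.2 and 24.7 TPM) to Phc3 (6.40 and 6.15 TPM), with no overlap. Scmh1, a related protein of PRC1, had 67.0 and 81.0 TPM.

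Among trithorax genes the 5 KMT2 genes had a median of 12.9 ± 1.47 TPM (SD, n = 2). Kmt2e, which carries a SET domain without known methyltransferase activity, was the highest at 44.7 and 41.9 TPM. The methyltransferases were lower, with Kmt2a (Mll1) at 15.7 and 15.4 TPM, Kmt2c at 13.9 and 11.9 TPM, Kmt2d at 9.09 and 8.55 TPM, and Kmt2b at 7.30 and 7.90 TPM. Their shared cofactors were higher per length: Men1 (menin), which ties Kmt2a and Kmt2b to chromatin, had 61.2 and 65.2 TPM, and Wdr5, a core subunit of all such complexes, had 36.8 and 35.7 TPM. Ash1l, a methyltransferase of histone H3 lysine 36, had 14.6 and 13.3 TPM. Of the demethylases of histone H3 lysine 27, Kdm6a (Utx) had 9.95 and 9.44 TPM and Kdm6b (Jmjd3) had 26.9 and 28.2 TPM, a log2 ratio of Kdm6a over Kdm6b of -1.51 ± 0.10 (SD, n = 2).

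Of 15 pairs of related members compared, the first gene named was higher in both libraries for 13. The exceptions were Kdm6a against Kdm6b, lower in both, and Pcgf2 against Bmi1, mixed. Which gene of a pair came first was set when the pairs were listed, so the count of 13 depends on that choice. These levels add up all transcripts of a gene, and the order of some pairs depended on which transcripts were counted.

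The transcript tables list 240 transcripts of the members, and 34 members have more than 1. A transcript is called complete coding here where GENCODE gives it as protein-coding with both ends of the coding sequence, incomplete where an end is missing, and otherwise of another type (retained intron, processed transcript or decay target). The median share of a member's TPM in complete coding transcripts was 83.1%, against 86.4% over the 9877 detected coding genes with several transcripts. It was 82.0% over the 34 members with several. Of the members, 14 had 90% or more, among them Pcgf6 and Phf1 with a single transcript, and 7 had under 50%. These 7 were Rbbp4, Mtf2, Cbx8, Scmh1, Kmt2a, Kmt2b and Kmt2c. The shares of all coding genes past these limits are not given here, so whether such a spread is usual is not shown.

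**Figure D2:**
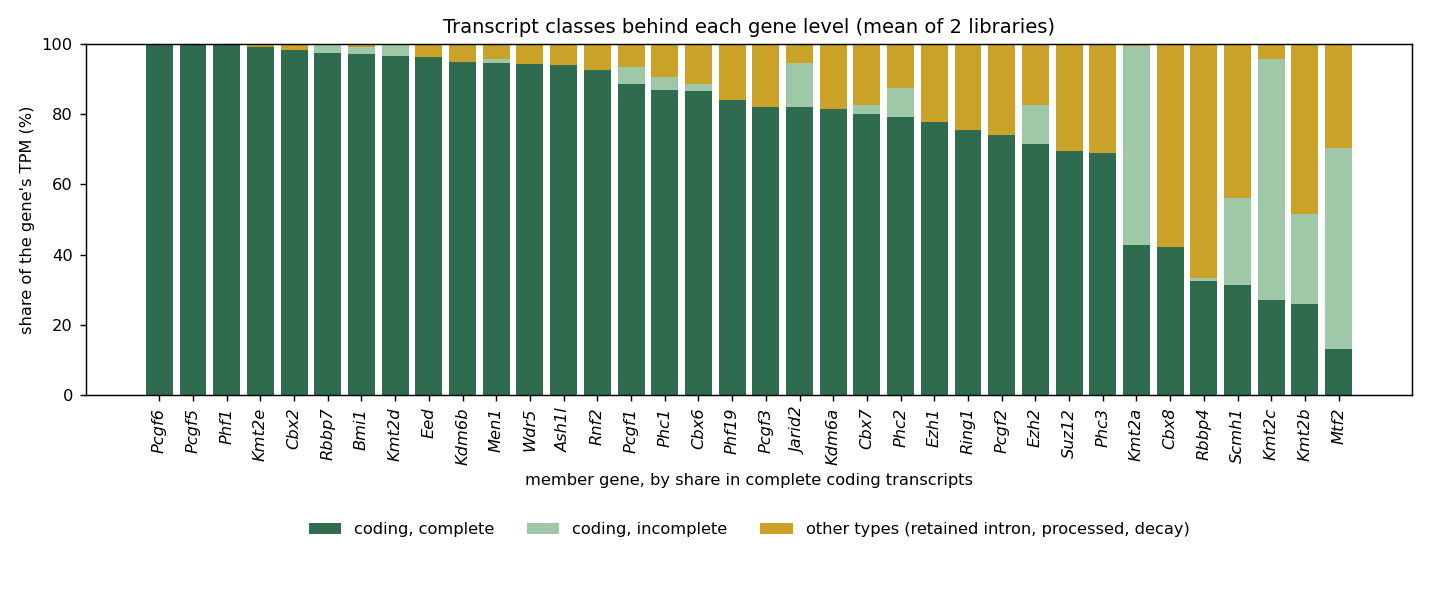
Share of each member's TPM (%, mean of the 2 libraries) in complete coding, incomplete coding and other transcripts, as stacked bars sorted by the complete coding share. The last 7 genes, from Kmt2a at 42.7% to Mtf2 at 13.0%, lie under 50%.

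The same 7 members had a leading transcript, the one of highest TPM, that was not complete coding in either library, 7 of 34 against 11.6% of the coding genes compared. For 3 of them, Rbbp4, Cbx8 and Kmt2b, the leader was of another type altogether, against 7.97% of those genes. In 8 of 34 members, against 20.6% of those genes, the leader held under 50% of the TPM in both libraries: Mtf2, Pcgf2, Phc1, Phc3, Scmh1, Kmt2b, Kmt2c and Men1. Another 4 genes stood at the other end, with nearly all TPM in 1 complete coding transcript. The leader held 98.3 and 98.3% for Cbx2, 96.8 and 95.7% for Eed, 94.3 and 95.2% for Kdm6b, and 93.9 and 94.6% for Wdr5. Pcgf6 and Phf1 have a single transcript.

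Rbbp4 was the extreme case by level. Its leader Rbbp4-203 is a processed transcript of 722 nt in 4 exons, and it stood at 138 TPM in replicate 1 and at 125 TPM in replicate 2. The coding transcript Rbbp4-201, of 4407 nt, had 65.9 and 65.5 TPM. Rbbp4-203 therefore held 65.9 and 63.4% of the gene's TPM, but 22.2 and 20.4% of its estimated reads, because TPM divides reads by length. All 722 nt of Rbbp4-203 also lie in Rbbp4-201, and 2 of its 3 exon junctions do, which leaves 1 junction as the sequence that tells them apart. That junction runs from inside a coding exon of Rbbp4-201 to inside its last exon, past the end of the coding sequence. Neither side is an exon boundary of Rbbp4-201. The gene lies at chr4:129307100-129335370 on the minus strand of GRCm38.

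**Figure D3:**
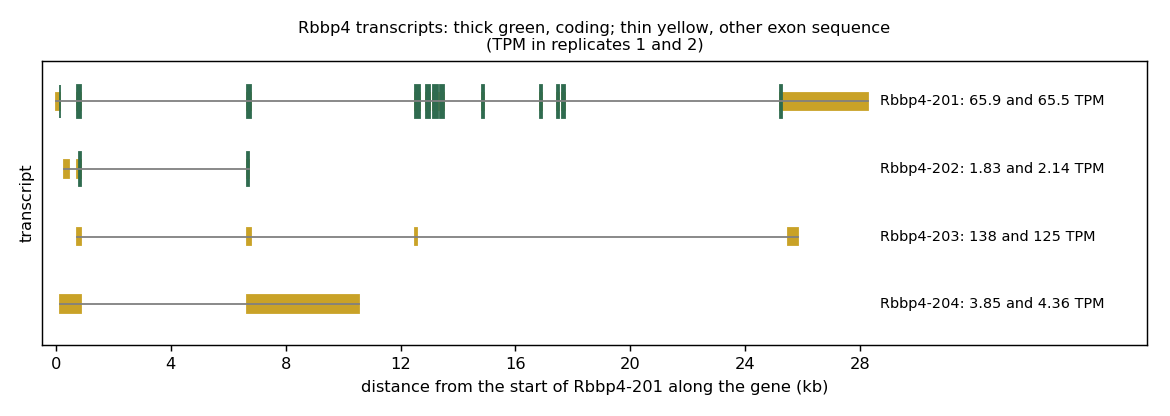
Exons of the 4 Rbbp4 transcripts by distance in kb from the start of Rbbp4-201, with coding sequence as thick green and other exon sequence as thin yellow boxes, and the TPM in replicates 1 and 2 beside each. Rbbp4-203 has 4 exons, joins a point inside a coding exon to a point inside the last, and has the highest TPM at 138 and 125.

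The other members of this kind fell into a few forms. Mtf2-208, an incomplete coding transcript of 718 nt, had 26.7 and 29.5 TPM, against 8.57 and 8.58 TPM of the complete Mtf2-201 (4060 nt). It has 3 nt of its own and shares all 7 of its junctions with Mtf2-201. Cbx8-202, a processed transcript of 789 nt with 95 nt from introns, had 4.50 and 3.83 TPM, against 3.22 and 2.97 TPM of Cbx8-201. Scmh1-206, incomplete and of 623 nt, led with 16.2 and 20.4 TPM but held only 24.2 and 25.1% of the gene.

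In Kmt2a, Kmt2b and Kmt2c, much of the TPM was assigned to annotated transcripts that cover part of the gene. Kmt2a-203, of 4336 nt, covers the first 4237 nt of Kmt2a-201 and had 8.65 and 8.99 TPM, against 6.25 and 5.62 TPM of Kmt2a-201. Kmt2c-208, of 6443 nt, shares sequence with Kmt2c-201 between bases 10429 and 14967, has 1976 nt of its own, and had 5.74 and 4.51 TPM, against 3.50 and 3.47 TPM of Kmt2c-201. Kmt2b-207, a retained intron transcript of 571 nt, had 2.73 and 3.61 TPM, against 1.85 and 1.99 TPM of Kmt2b-201. Kmt2d and Kmt2e, in contrast, had 96.6% and 99.2% of their TPM in complete coding transcripts.

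By reads rather than TPM, the complete coding share was higher for each of the 7. It was 73.7% for Rbbp4, 78.8% for Cbx8, 74.2% for Kmt2a, 54.2% for Kmt2b, 51.5% for Scmh1, 49.1% for Kmt2c and 35.0% for Mtf2. Of these 7, Kmt2c and Mtf2 had less than 50% in complete coding transcripts on both scales.

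With complete coding transcripts alone, the order of Rbbp4 and Rbbp7 turned round. The log2 ratio of Rbbp4 over Rbbp7 was 0.14 ± 0.059 with all transcripts and -1.45 ± 0.0021 with complete coding ones (SD, n = 2 each). Rbbp7 then ranked first of the 36 and Rbbp4 ranked 3. The ratio of Kmt2c over Kmt2d likewise went with the transcripts counted, 0.54 ± 0.10 with all and -1.29 ± 0.045 with complete coding ones. Mtf2 over Phf19 was 5.52 with all transcripts and 2.83 with complete coding ones, and Mtf2 moved in rank to 25 with complete coding transcripts, against 5 with all. Scmh1 ranked 14 against 4, and Kmt2a 30 against 23. Ezh2 over Ezh1 was 1.00 ± 0.16 with complete coding transcripts (SD, n = 2), against 1.12 with all, and kept its direction in both libraries. It was 0.47 with counts not corrected for length.

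**Figure D4:**
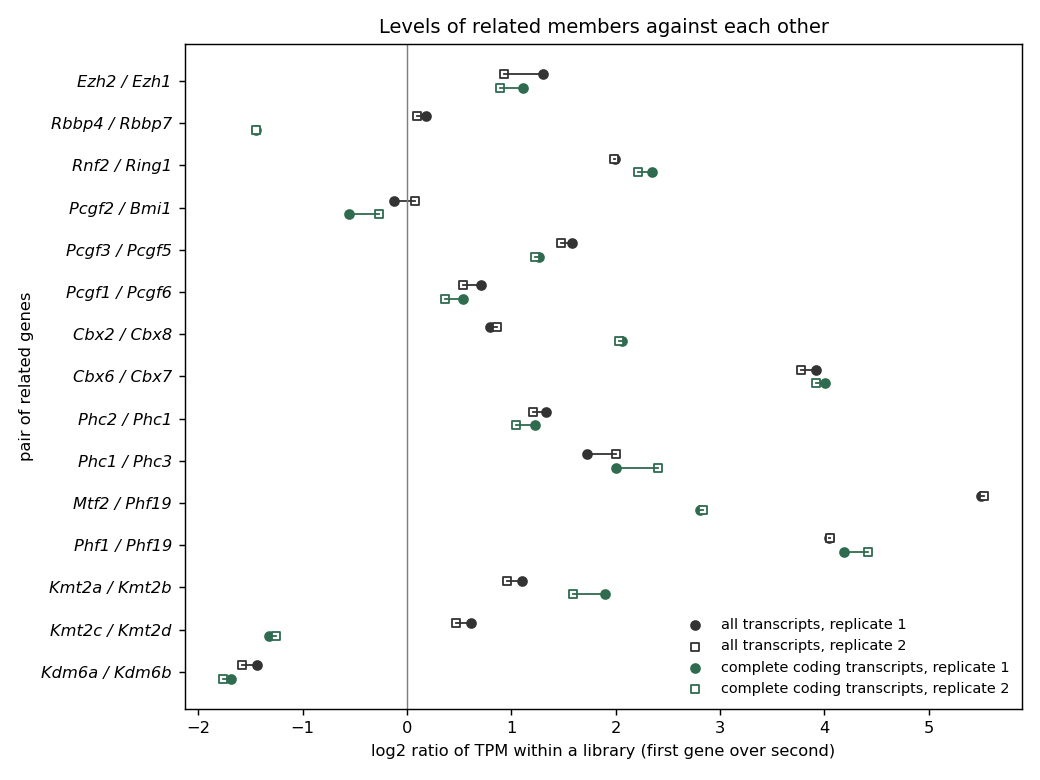
Log2 ratio of TPM, first gene over second, for the 15 pairs of related members within each library, with all transcripts in black and complete coding transcripts in green, replicate 1 filled and replicate 2 open. Rbbp4 / Rbbp7 and Kmt2c / Kmt2d change side of 0 between the black and green points in both libraries.

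Several members also had more than 1 complete coding transcript with at least 10% of the complete coding TPM. In 8 of them these differ by an inner coding segment made of whole codons, a set chosen after values were seen. Of the 8, Kmt2a differs by 9 nt, included at 9.55 and 11.4% in replicates 1 and 2, and Cbx7 by 279 nt, included at 18.7 and 19.4%. The segments of the other 6 are shown because the coding sequences of complete transcripts differ there. In Phc3 the segment is not the only coding difference. Phc3-203 also lacks further coding exons of Phc3-209 and has 57 coding nt of its own. Noncoding ends differ too. Ezh2-201 has 402 and 137 nt there that Ezh2-202 lacks, and Rbbp7-201 has 336 and 19 nt that Rbbp7-203 lacks. Cbx6-203 has 2245 and 451 nt there that Cbx6-202 lacks. Inclusion was computed from the TPM of whole transcripts, not from reads over the segment alone. Capitals mark the segment and lower case the 20 nt on either side in the spliced transcript, 5′ to 3′ on the sense strand, from GENCODE M21 on GRCm38. The positions are chr6:47541845-47541970 (minus) for Ezh2, chr11:79999057-79999125 (plus) for Suz12, chrX:162769764-162769790 (plus) for Rbbp7, chr15:79828925-79828978 (minus) for Cbx6, chr6:122332522-122332677 (minus) for Phc1 and chr3:30948702-30948800 (minus) for Phc3.
Ezh2 segment: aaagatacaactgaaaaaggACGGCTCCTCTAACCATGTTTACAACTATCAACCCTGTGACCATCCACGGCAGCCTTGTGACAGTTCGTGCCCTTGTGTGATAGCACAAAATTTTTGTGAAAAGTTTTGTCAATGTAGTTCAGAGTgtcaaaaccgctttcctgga
Suz12 segment: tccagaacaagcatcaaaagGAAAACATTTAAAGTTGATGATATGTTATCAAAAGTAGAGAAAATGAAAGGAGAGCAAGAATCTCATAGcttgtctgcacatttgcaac
Rbbp7 segment: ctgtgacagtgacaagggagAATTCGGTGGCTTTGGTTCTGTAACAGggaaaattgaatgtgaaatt
Cbx6 segment: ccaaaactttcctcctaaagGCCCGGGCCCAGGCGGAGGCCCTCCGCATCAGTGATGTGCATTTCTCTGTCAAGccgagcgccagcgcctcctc
Phc1 segment: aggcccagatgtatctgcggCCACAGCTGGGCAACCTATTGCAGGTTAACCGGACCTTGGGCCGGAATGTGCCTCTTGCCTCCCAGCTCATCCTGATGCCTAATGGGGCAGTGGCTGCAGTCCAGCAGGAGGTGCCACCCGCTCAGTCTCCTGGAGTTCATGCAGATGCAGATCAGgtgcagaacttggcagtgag
Phc3 segment: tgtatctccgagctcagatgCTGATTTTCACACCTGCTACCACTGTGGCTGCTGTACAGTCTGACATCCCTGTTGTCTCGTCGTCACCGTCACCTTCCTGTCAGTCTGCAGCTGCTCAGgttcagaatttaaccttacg

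The share of TPM in complete coding transcripts that include the segment, among those that include or skip it, differed by under 2 percentage points between the pools for 3 of these 6 genes. For Ezh2, whose 126 nt encode part of the cysteine-rich region before the SET domain, it was 80.3% in replicate 1 and 79.2% in replicate 2. For Rbbp7, with 27 nt, it was 65.4 and 64.1%, and for Cbx6, with 54 nt, 35.0 and 36.6%. Most of this Ezh2 and Rbbp7 TPM was thus assigned to transcripts with the segment in each library. For Cbx6 most was assigned to those without it. Complete coding transcripts held 71.5% of all TPM of Ezh2, 97.3% of Rbbp7 and 86.7% of Cbx6. Ezh2-201, the main Ezh2 transcript with the segment, has 2652 nt in the deposited values but 2787 nt in GENCODE M21.

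For the other 3 genes the pools were further apart. The 69 nt of Suz12 were included at 50.1% in replicate 1 and 80.7% in replicate 2, the 156 nt of Phc1 at 81.6 and 59.2%, and the 99 nt of Phc3 at 70.0 and 80.8%. Phc1 was the only member whose leading transcript differed between the libraries, 1 of 34 against 7.85% of the coding genes compared. It was Phc1-215 in replicate 1 (7.53 and 4.32 TPM in replicates 1 and 2) and Phc1-202, which lacks the segment, in replicate 2 (3.25 and 8.59 TPM). The authors' own TPM intervals overlapped between the libraries, at 0.569 to 5.05 and 4.54 to 9.45 TPM for Phc1-202. They overlapped as well for Suz12-206, which lacks the Suz12 segment, at 1.68 to 6.86 TPM in replicate 1 and up to 2.90 TPM in replicate 2.

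Between the pools, no member differed by 1.5-fold or more, 0 of 36. Of the 17048 genes compared, 4.26% were higher by that fold in replicate 1 and 2.22% in replicate 2. The log2 ratio of replicate 1 over replicate 2, from scaled counts, ran from -0.24 for Scmh1 to 0.39 for Suz12. The median absolute log2 ratio was 0.0745 over members and 0.0897 over the 13282 genes with a mean count of at least 135, the lowest among members. With 1 library per pool there is no replicate of a pool, so the difference has no test. The exact 95% counting interval, which covers counting error only, excluded 0 for 16 members. Of these, 12 were higher in replicate 1, against 19.9% of those 13282 genes, and 4 in replicate 2, against 22.7%. The interval narrows as counts grow, so such shares depend on depth.

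Ezh2 (0.29) and Suz12 (0.39), the enzyme and the scaffold of PRC2, had the highest ratios among the members. All 6 PRC2 core genes had a positive log2 ratio. All 5 KMT2 genes did too, from 0.07 to 0.19. The median over the 17048 genes compared was -0.00035, so about as many lay above 0 as below. Ezh1 (0.023), Eed (0.027), Rbbp4 (0.062), Rbbp7 (0.065) and Kmt2b (0.068) lay under the median absolute ratio of 0.0897 given above. The signs of both groups held under each of the 4 scalings tried. A change of scaling shifts the ratio of every gene equally, so this adds no separate support. On the TPM scale, Ezh1 (21.3 and 22.2 TPM), Eed (18.7 and 19.0 TPM) and Kmt2b (7.30 and 7.90 TPM) were higher in replicate 2. The counting intervals of these genes included 0, and the rest of both groups were higher in replicate 1 by TPM too. The 4 members with intervals below 0 were Jarid2 (-0.16), Pcgf6 (-0.14), Phc1 (-0.14) and Scmh1 (-0.24). All 4 genes of the PHC and SCM group were negative, but 2 of them, Phc2 and Phc3, turned positive when scaled by spike-ins, which moves the median gene by 0.11. In all, 21 of 36 members were higher in replicate 1, with a median log2 ratio of 0.030 against -0.00035 over all genes compared. With spike-in scaling 30 of 36 were, a count that includes the shift shared by all genes.

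Markers of cell types moved between the pools as well. All 10 dividing progenitor markers were higher in replicate 1, with a summed level of 528 TPM in replicate 1 and 447 TPM in replicate 2. Mki67 was past 1.5-fold, at 7.99 TPM in replicate 1 and 5.18 TPM in replicate 2. The 6 meninges markers (1330 and 966 TPM) and the 6 microglia markers (156 and 124 TPM) were also all higher in replicate 1, and 5 of 7 blood markers were. The median log2 ratio was 0.349 for meninges, 0.341 for microglia and 0.324 for blood, against 0.304 for dividing progenitors. No marker in these 4 lists was at 0. In the other lists, those higher in replicate 1 were of vessels (4 of 6), astroglia and oligodendrocyte precursors (4 of 8), radial glia (3 of 7), neurons (3 of 10), hindbrain (2 of 10) and choroid plexus (1 of 6). Their part in the ratios of Ezh2, Suz12 and the other members was not tested.

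**Figure D5:**
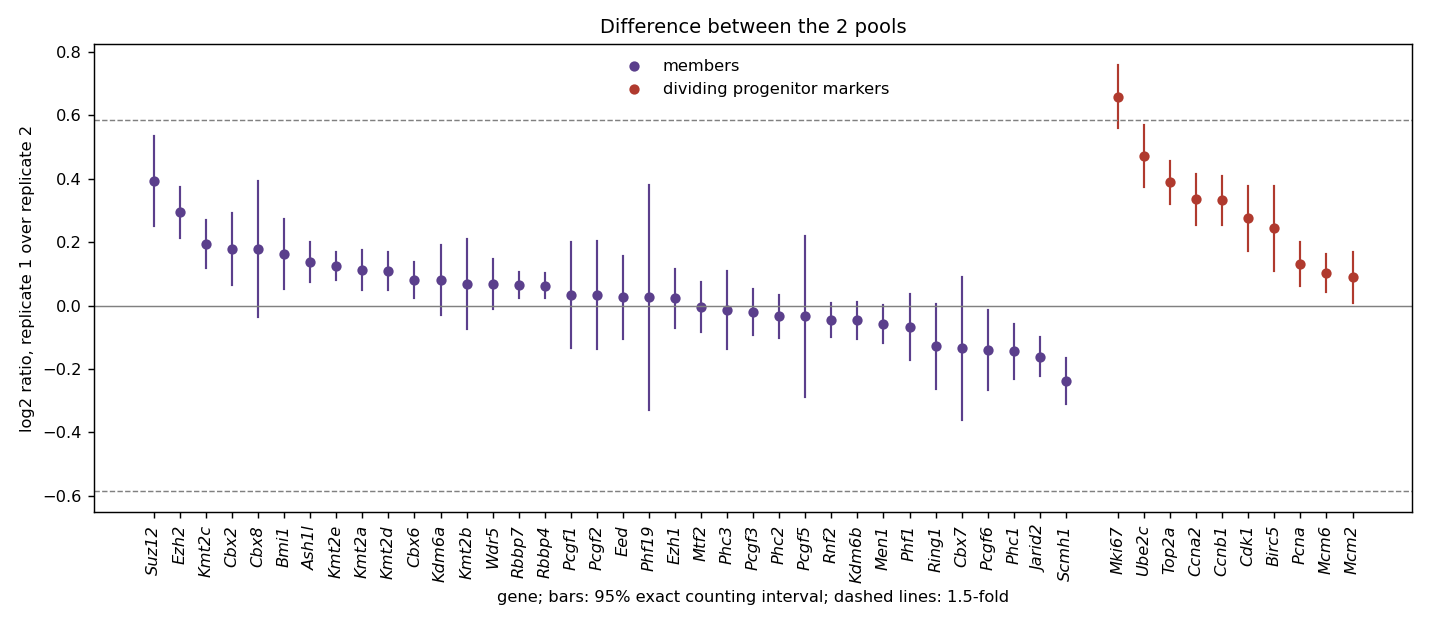
Log2 ratio of replicate 1 over replicate 2 for the 36 members (purple, sorted) and the 10 dividing progenitor markers (red), with 95% exact counting intervals as bars and 1.5-fold as dashed lines. Members lie between -0.24 and 0.39, and all 10 markers lie above 0.

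Other genes of the same complexes spanned a similar range of levels. Of 39 further subunits and partners, 38 were matched and all 38 reached 1 TPM, against 63.1% of nuclear protein-coding genes. Their median was 15.9 TPM, against 19.4 TPM over detected coding genes. Between the pools 0 were past 1.5-fold, against 4.26% (higher in replicate 1) and 2.22% (higher in replicate 2) of the genes compared. Of the 38, 20 were higher in replicate 1 and 18 in replicate 2. Aebp2 (0.42) and Bcor (0.40) had log2 ratios above that of Suz12. The highest were Psip1, which ties menin complexes to chromatin (205 and 204 TPM), Dpy30, a core subunit of KMT2 complexes (145 and 138 TPM), Yaf2, a partner of variant PRC1 (103 and 106 TPM), and Bap1, which removes ubiquitin from histone H2A (80.7 and 91.0 TPM). The lowest were Scml2, a relative of Scmh1 (1.86 and 1.75 TPM), and Epop, a PRC2 partner (2.06 and 2.41 TPM).

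The authors' posterior spread of the gene count was 0 in both libraries for 25 of 36 members. The largest among the other 11 was 9.57 reads for Kmt2e, of 8225 reads. Overlap with a gene on the other strand is a further limit, since the strand setting of the counting is not given and reads of the 2 genes could then not be told apart. Of the members, 18 overlap another gene in the tables and 10 overlap one at 1 TPM or more. All 10 do so within exons and on the opposite strand. The shares of all genes with such overlaps, or with no posterior spread, are not given here. The partners at the highest level were Cuta over Phf1 (102 and 106 TPM, 1370 nt of exon overlap) and Dap3 over Ash1l (103 and 97.5 TPM, 352 nt). The others were Trmt1l over Rnf2, Srpk2 over Kmt2e, Tmed5 over Mtf2, Txlng over Rbbp7, Apobec3 over Cbx7, E230029C05Rik over Eed, Gm26563 over Suz12 and Sync over Rbbp4.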

How the data were processed

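Total RNA-seq of 2 pooled libraries of 1 group was analysed, grouped by the replicate numbers of the labels. The tables refer to mm10 and GENCODE M4, 1 library each, per the file headers and the notes beside them. Aligner, quantifier and strand setting: not given in the sources used here. Estimated counts were deposited as reads assigned to each gene and transcript, without normalization. The deposited TPM values are scaled over all features, spike-ins included, and corrected for effective length. The deposited FPKM values and the deposited posterior values and interval bounds, a signal on the scale of counts or TPM, served as alternatives and to give the authors' intervals. The deposited percent of a gene's TPM per transcript was not printed; shares were computed from TPM.

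GENCODE M21, of the same assembly, gave symbols, positions and the types of transcripts; 42462 of 43346 gene IDs and all 240 member transcripts matched, 230 with the same length. The library totals were 40020322 and 43263959 estimated counts, rounded for scaling by TMM (edgeR 4.0.16) with a prior count of 0.5, with genes kept where the mean count was 20 or more. The ratio was tested on simulated data. DESeq2 1.42.0 size factors, library totals and spike-in totals (2.86 and 3.09% of counts) were alternatives. Clopper-Pearson intervals at 95% came from scipy 1.17.1. Members and lists were chosen with earlier results of these data known. Named beside the members were the 4 highest and 2 lowest partner genes, the highest marker of each list, transcripts that led with under 50% or were not coding, the 4 highest leading shares and overlapping genes at 1 TPM or more. With 1 group and 2 pools no test between conditions was made, and the spread between the pools may be biological or technical.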

Additional observations from a re-analysis of the deposited data

How the results depend on the processing

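Of 174 alternative values over 33 results, 107 were labelled unchanged, 62 moved and 5 changed sign. For pair ratios and group medians, unchanged meant within the SD of the 2 libraries. Counts have no such spread, and small shifts in them were labelled unchanged, as from 13 to 11 pairs with the first gene higher. Leaving out 1 of 2 libraries always shifts a mean pair ratio by less than that SD. Those pair values were therefore bound to be labelled unchanged and show nothing about robustness. Rbbp4 over Rbbp7 was -1.445 with protein-coding transcripts and -1.449 with complete coding ones, and Kmt2c over Kmt2d -1.288 with complete coding ones; with counts not corrected for length, Kmt2c over Kmt2d was -0.6719 and Pcgf1 over Pcgf6 -0.8232 (log2). Pcgf2 over Bmi1, mixed in sign as reported, was -0.4436, -0.4126 and -1.232 with protein-coding transcripts, complete coding ones and such counts. At the lower fold tried, 1 member passed (Suz12). Spike-in scaling gave a median member ratio of 0.1429. Posterior TPM gave 2 members with differing leaders (Phc1 and Suz12), a coding share of 89.87% and medians of 17.77 TPM (PCGF) and 18.3 TPM (demethylases). With protein-coding transcripts alone, 2 leaders differed (Phc1 and Kmt2b), 4 were not complete, and medians were 28.77 (PRC2 core), 41.54 (RING), 15.66 (PCGF), 7.96 (CBX), 31.1 (PHC and SCM), 34.16 (other trithorax) and 17.01 TPM (demethylases). With complete coding ones they were 26.01, 16.48 (accessory), 41.48, 15.48, 7.96, 21.55, 6.625 (KMT2), 34.16 and 17.01 TPM, in that order of groups.

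Leaving out 1 library gave medians of 32.31 to 36.97 (PRC2 core), 25.83 to 28.25 (accessory), 43.81 to 49.52 (RING), 17.2 to 17.62 (PCGF), 9.59 to 10.79 (CBX), 37.3 to 40.91 (PHC and SCM), 11.86 to 13.94 (KMT2), 35.69 to 36.8 (other trithorax) and 18.45 to 18.82 TPM (demethylases). It gave 13 to 14 pairs with the first gene higher, a count that was 12 with protein-coding transcripts, 11 with counts not corrected for length and 11 with complete coding transcripts. It gave 36 to 36 members detected and a coding share of 90.11 to 91.14%, against 91.6% with both. Ratios between pools, the order of levels and differing leaders need both libraries. The alternatives of complete coding transcripts, of the order, of incomplete leaders and of 2 TPM for partner genes were chosen after seeing the data. No paired analysis was possible because there is 1 group. The cause of the moves was not tested.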
